A study of Drosophila melanogaster with 9 samples.

Results

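The sites described here are 307 of the 6901 FLAG peaks called in embryos of the Pita wt line. They were chosen by overlap of peaks alone. A window of 250 bp on each side of the FLAG summit had to overlap, by 1 bp or more, a FLAG window of the Pita ΔCP1+2 line and a CP190 window of the Pita wt line, and no CP190 window of the Pita ΔCP1+2 line. FLAG was thus called in both lines at these sites and CP190 only in Pita wt. Of the 6901 peaks, 4938 shared a FLAG window between the lines, and 3736 of these had CP190 in Pita wt. CP190 was kept in the mutant at 3429 of them, and the 307 sites are 8.22% of the 3736. Since the lists themselves chose the sites, the loss of CP190 is a description and was not tested.

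FLAG and CP190 were each precipitated in 2 replicates from Pita ΔCP1+2 embryos and in 2 from Pita wt embryos. The ninth sample is a preimmune precipitation from Pita wt embryos, against which all peaks were called. Both lines of Drosophila melanogaster, labelled with the strain Oregon-R, carry a transgene that expresses Pita with a 3xFLAG tag from the Ubi-p63E promoter at the same landing site, so the protein is made broadly and not from its own promoter. In the Pita ΔCP1+2 transgene the regions that bind CP190 are deleted. The labels give embryos of 0 to 12 h while the methods give a later window, and the sources used here do not state for the chromatin samples whether endogenous Pita was also present. CP190 antibodies recognise the CP190 of the fly in both lines. Each antibody had a single pooled list in each line, so no value below has a replicate error, and read depth was not analysed here. The study scored the agreement of replicates by a self-consistency ratio, for which its methods state an upper limit. In its supplement both Pita wt lists lay above that limit and both mutant lists below it. By that measure the Pita wt lists were the less reproducible ones. The rescue ratio, a second measure given there, lay below the limit in every list. The methods rate the reproducibility of all samples as ideal or acceptable. Peaks of the lists of both lines define the sites.

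Pita is a DNA-binding protein with a cluster of zinc fingers that reads a long motif, and it is found at insulators of the bithorax complex and at many promoters. CP190 carries a BTB domain and does not find most of its sites by itself. It is brought to chromatin by DNA-binding architectural proteins such as Pita, Su(Hw) and CTCF, and it is typical of active promoters and domain boundaries. A site that keeps Pita without CP190 would be a place where the contact between these proteins can be followed. The study split its FLAG peaks by the Pita motif to deal with non-specific FLAG binding. A FLAG peak alone, such as one without a motif, therefore need not mark bound Pita.

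The 307 sites fell into a small set with strong CP190 and a large set with weak CP190. Fold enrichment is the ratio of the ChIP signal at the summit to the preimmune sample, as the authors gave it. In 43 sites the CP190 peak of Pita wt was among the strongest 500 of its list by fold enrichment, and in 39 of these it was also among the strongest 250, with ranks of 182 or better. Their CP190 fold enrichment had a median of 6.39 and ranged between 2.80 and 19.05. In the other 264 sites the median was 2.03 (range 1.46 to 2.75), against a median of 2.07 over the whole CP190 list of Pita wt. The 43 are called the stronger sites below and the 264 the weaker sites. They differed in motif content, position and FLAG signal, and a median over all 307 (a CP190 percentile of 50.9 in Pita wt) describes neither.

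The stronger sites differed from the weaker ones most plainly in their Pita motif, so the words themselves come first. The first set shows the best match to the Pita matrix at the 10 sites with the highest CP190 fold enrichment in Pita wt, in that order. Each line gives 29 bases of the strand that matches, 5′ to 3′, from the RefSeq sequence of the dm6 assembly, with the 21 bases of the match in capitals and 4 flanking bases on each side in lower case. Sites are named by the nearest transcript start.
MCU: gactAAACAGTCGAGACACGAACCTaaac
CG6465: ctaaACATAGTAGTGACGCGCACCAaata
Lnk: ctccATTTAGCGGGGTTACGTTCCAgaaa
Lk6: aaatAAACAGCGAAGTTCTCAACCAtatg
PhKgamma: cctaACTTAGCAAGGACTTGATCCCactc
Socs36E: tataCTCTAGCACGGGCTCCAACCCgtgg
cindr: ttggCGCGAGCGGAGACGGCAACCAcggt
inc: accgATCTAGCTAGGACACACACCGcggt
Mpcp2: ggcgCCTGAGCGTGGACTCGAACCAtctg
CG32295: acgaGTTTAGCTGAGACACGAACCAgctg
In dm6 these matches lie at chr3L:6550196-6550216 on the plus strand for MCU (intergenic), chr3R:10675331-10675351 on the plus strand for CG6465 (intergenic), chr3R:25888477-25888497 on the plus strand for Lnk (intergenic), chr3R:11764569-11764589 on the minus strand for Lk6 (intergenic) and chrX:11694978-11694998 on the minus strand for PhKgamma (intergenic). The next lie at chr2L:18152577-18152597 on the plus strand for Socs36E (intergenic), chr3R:30808524-30808544 on the minus strand for cindr (intergenic), chrX:1512956-1512976 on the plus strand for inc (in the 5′ UTR of inc), chr3L:14537475-14537495 on the minus strand for Mpcp2 (intergenic) and chr3L:2531520-2531540 on the plus strand for CG32295 (in an intron of Spn). The annotation in brackets is that of the FLAG summit.

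The second set holds the other sites among the 10 with the lowest motif p, shown because their words lie closest to the matrix whatever their CP190 level. The p of a match is the probability of its score or a higher one in a random word of equal base frequencies.
lncRNA:CR45717: gcaaCCTCAGCGGGGACACGAACCCaagg
CG42788: cccaACTTAGCAGAGACACGCACCGaact
NFAT: ataaCTTTAGCGCAGACTCGAACCCgaat
Sxl: ctccATTTAGCGAATACACGAACCCattt
Mfe2: taagCCGTAGCAAAGACTCCAACCCgttt
Dhdds: cggtATTTAGCATAGACTCCAACCGacac
mad2: ggtcGCATAGCCAATACACACACCAaata
Pits: gagaCTGTAGCGAAGACTTCAACCAtgat
Trf4-1: attcACTTAGCGGAGTCATCAACCTtggc
These lie at chr2L:1142815-1142835 on the plus strand for lncRNA:CR45717 (intergenic), chr3R:15132015-15132035 on the minus strand for CG42788 (intergenic), chrX:13642131-13642151 on the minus strand for NFAT (in an intron of NFAT), chrX:7098190-7098210 on the plus strand for Sxl (intergenic) and chrX:16270822-16270842 on the minus strand for Mfe2 (in an intron of kat80). The others are at chrX:7933365-7933385 on the plus strand for Dhdds (intergenic), chr3L:5813193-5813213 on the minus strand for mad2 (intergenic), chrX:12583356-12583376 on the plus strand for Pits (in the 5′ UTR of Pits) and chrX:8560552-8560572 on the plus strand for Trf4-1 (in the 5′ UTR of Trf4-1).

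For contrast, the third set holds the 4 sites with a strict match (p of 1e-06 or below) and a CP190 rank of 10 or better in Pita wt at which a CP190 window remained in Pita ΔCP1+2.
Atg8a: taacATTTAGCGAATACATGAACCAaatg
Tlk: tgttACTTAGCGTGTGCACCAACCAtagt
cib: attcATTTAGCAGAGACACGAACCAcatc
ATPsynC: aaatGTGTAGCCAGGACTTGCACCGtgga
They lie at chrX:10768415-10768435 on the minus strand for Atg8a (intergenic), chrX:3719863-3719883 on the minus strand for Tlk (intergenic), chrX:4105864-4105884 on the minus strand for cib (intergenic) and chr3R:31219696-31219716 on the minus strand for ATPsynC (intergenic).

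Among the 30 sites with a match at p of 1e-06 or below, no word was repeated. The best-scoring base of the matrix stood at 12 to 18 of the 21 positions, with a median of 15. The 30 matches all had A at the fifth position of the match and ACC at positions 18 to 20, and 27 of them had AGC at positions 5 to 7. The highest-weight base was least frequent at position 1 (8 of 30 matches), position 9 (9 of 30) and position 16 (11 of 30). At positions 11, 12 and 13 it stood in 25, 24 and 27 of 30. The match lay on the plus strand in 17 of the 30, and its centre was within 100 bp of the FLAG summit in 28. The words kept in the mutant line, as at Atg8a and cib, show the same 2 runs. The bases of both runs carry high weights in the matrix. Words chosen by their matrix score are therefore bound to hold them often, at lost and kept sites alike.

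At the threshold of 1e-04, 76 of the 307 sites had a match within 250 bp of the FLAG summit (24.8%, 95% Wilson interval 20.3 to 29.9%). The share was 32.4% (27.6 to 37.7%) at the 330 FLAG peaks of Pita wt that lost FLAG together with CP190, 10.9% (9.91 to 12.0%) at the 3429 sites that kept CP190 and 11.9% over all FLAG peaks of Pita wt on the chromosome arms. Intervals over peaks cover counting error only. At 1e-06 the counts were 30 of 307 (9.77%) at sites that lost CP190, 43 of 330 (13.0%) at those that lost both and 17 of 3429 (0.496%) at those that kept CP190, against 1.54% of all FLAG peaks of Pita wt. A raised motif share was thus not particular to the 307 sites. The split inside them was sharper. Of the 43 stronger sites, 39 (90.7%) had a match at 1e-04 and 25 (58.1%) at 1e-06. Of the 264 weaker sites, 37 (14.0%) and 5 (1.89%) did, shares close to those of all FLAG peaks. At least 2 matches lay in the window at 31 of the 43 stronger sites (72.1%), at 7 of the 264 weaker sites (2.65%) and at 26 of the 3429 sites that kept CP190 (0.758%), against 134 of all 6901 FLAG peaks of Pita wt (1.94%).

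**Figure D1:**
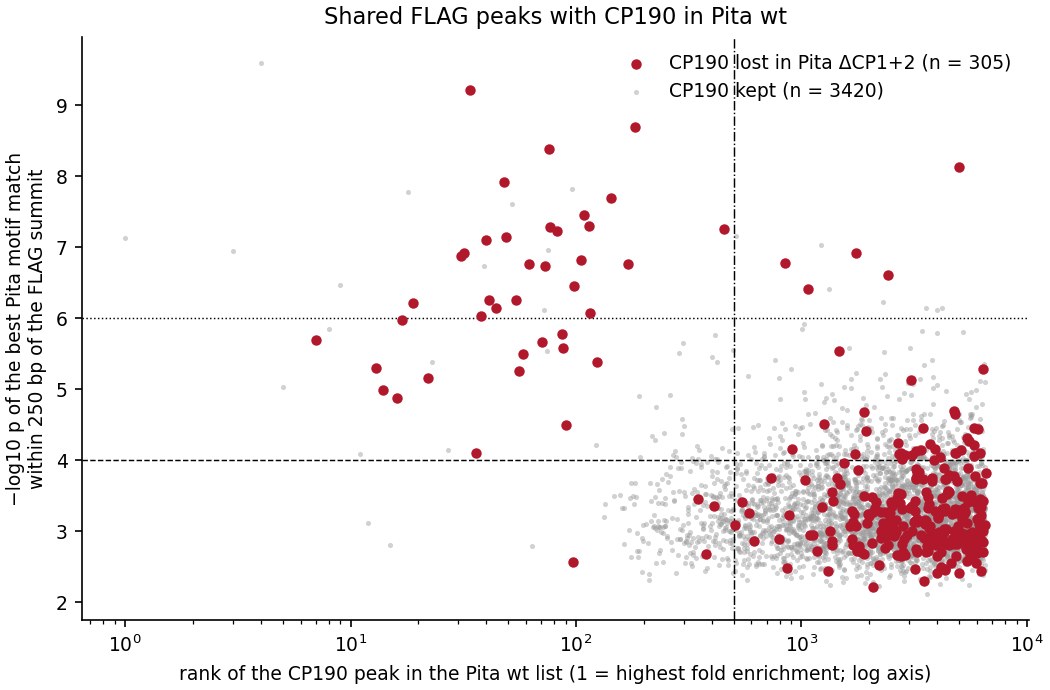
Each point is a shared FLAG peak with CP190 in Pita wt on a chromosome arm (305 that lost CP190 in Pita ΔCP1+2 in red, 3420 that kept it in grey). The horizontal axis is the rank of the CP190 peak in the Pita wt list on a log scale and the vertical axis the −log10 p of the best Pita match. The dashed line marks 1e-04, the dotted line 1e-06 and the vertical line rank 500. The stronger sites that lost CP190 sit at the upper left, and the weaker ones lie in the cloud of sites that kept it.

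The plot of motif p against CP190 rank shows both sets at once. Strong CP190 together with a clear match was the usual state of the lost sites at the left, and grey points were mixed in with them there. At CP190 ranks 1 to 100, 31 of 50 shared FLAG sites lost CP190 (62.0%, interval 48.2 to 74.1%). That share is close to the 61.0% of all 100 strongest CP190 peaks of Pita wt without a CP190 window in the mutant, so losing CP190 at that rank was not particular to shared FLAG sites. Within these ranks too few sites lacked a match at 1e-05 to tell whether the loss followed the strength of the match. The counts were 26 of 40 (65.0%, interval 49.5 to 77.9%) at 1e-05 or below and 4 of 6 (66.7%, 30.0 to 90.3%) with a weaker match. Without a match at 1e-04 the count was 1 of 4 (25.0%, 4.56 to 69.9%). At ranks 101 to 250 the lost sites were those with the clearer match. All 8 sites with a match at 1e-05 or below lost CP190, while 0 of 7 with a weaker match and 0 of 58 without a match did, where 0 of 58 allows a share of up to 6.21% by the Wilson interval. At ranks 251 to 500, 1 of 7 sites with such a match and 3 of 183 without a match at 1e-04 lost it.

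Below rank 500 the share was higher where CP190 was weaker, also at sites without a motif. It was 10 of 414 at ranks 501 to 1000 (2.42%), 47 of 666 at ranks 2001 to 3000 (7.06%) and 68 of 601 at ranks 5001 to 6586 (11.3%). Without a match at 1e-04, the last of these shares was 58 of 535 (10.8%). Over all ranks, 30 of the 47 shared FLAG sites with CP190 in Pita wt and a match at 1e-06 lost CP190 (63.8%, interval 49.5 to 76.0%). With the best match between 1e-06 and 1e-05 the count was 13 of 54 (24.1%), between 1e-05 and 1e-04 it was 33 of 349 (9.46%), and without a match it was 231 of 3286 (7.03%).

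The loss of strong CP190 was not confined to shared FLAG sites. Over the whole CP190 list of Pita wt, 1640 of 6586 peaks (24.9%) had no CP190 window in the mutant, and among the strongest 500 (503 with ties) the share was 36.2%. Among shared FLAG sites with CP190 in the strongest 500 it was lower, 43 of 330 (13.0%, interval 9.82 to 17.1%). Shared FLAG sites hold a FLAG peak of the mutant by rule, while the whole CP190 list needs no mutant peak. Away from shared FLAG sites, 72 of 77 CP190 peaks of ranks 101 to 250 (93.5%) and 36 of 46 of ranks 251 to 500 (78.3%) had no window in the mutant. Away means here no overlap with a FLAG peak called in both lines. The group can therefore hold CP190 peaks at FLAG peaks called in Pita wt alone, including those that lost FLAG together with CP190. It is not a set of CP190 peaks without Pita. The mutant CP190 list was longer, with 8429 peaks against 6586, but its strongest peaks were weaker. Its highest fold enrichment was 12.8, against 49.4 in Pita wt, and its 99th percentile was 3.40, against 6.58. How much of the loss at the 43 stronger sites goes with this difference between the whole lists was not tested.

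**Figure D2:**
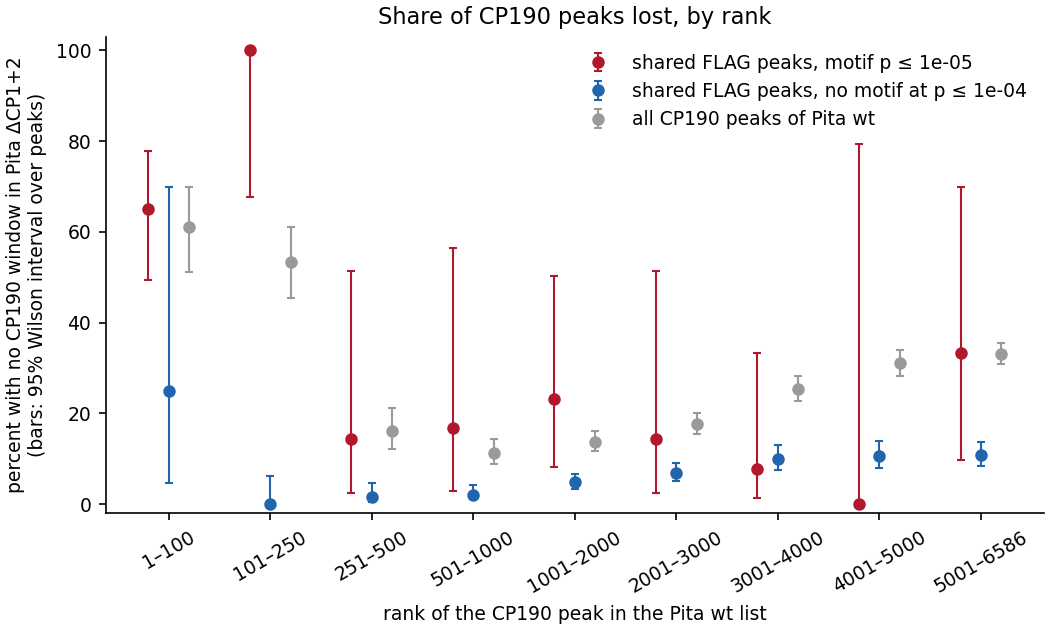
The percent of CP190 peaks of Pita wt without a CP190 window in Pita ΔCP1+2 is plotted by bins of CP190 rank, with 95% Wilson intervals over peaks. Red points are shared FLAG peaks with a Pita match at 1e-05 or below, blue points those without a match at 1e-04 and grey points all CP190 peaks of Pita wt. At ranks 101 to 250 the red point is at 100% (8 of 8) and the blue point at 0% (0 of 58), while beyond rank 1000 the blue points climb to 10.8%.

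In the plot of loss by rank, the red intervals are wide, since no bin beyond rank 100 holds more than 13 peaks with such a match. The blue points lie below the grey ones in every bin, although the first rests on 4 peaks. CP190 peaks at shared FLAG sites without a match were thus listed in both lines more often than CP190 peaks as a whole. By rule, however, shared FLAG sites hold a FLAG peak of the mutant, called against the same preimmune sample. CP190 peaks as a whole need no mutant peak of any kind. The choice of sites can therefore favour a CP190 call in the mutant, and its part in the difference was not tested.

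The strongest CP190 peak among the 307 sites lay at MCU, which encodes the channel of the mitochondrial calcium uniporter. Its FLAG peak (3L, 6549981 to 6550761 in dm6) is intergenic, with the summit 477 bp upstream of the start. FLAG fold enrichment was 3.02 in Pita ΔCP1+2 and 6.91 in Pita wt, and CP190 fold enrichment was 19.05 in Pita wt, which ranked 7. The nearest CP190 summit of the mutant list was 21518 bp away. Nothing in the mutant list therefore lay near this peak.

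CG6465 names an intergenic site (3R, 10675191 to 10675527) that lies 1913 bp from the nearest start. FLAG fold enrichment there was 2.66 in Pita ΔCP1+2 and 4.50 in Pita wt, and CP190 was 14.4 in Pita wt. At Lnk, an adaptor of insulin signalling, FLAG was 2.55 in the mutant and 4.13 in Pita wt, with CP190 at 14.4 in Pita wt and the summit 108 bp upstream of the start. Lk6 encodes a kinase of the translation factor eIF4E, and its site, 80 bp upstream, had FLAG at 2.09 in the mutant and 3.65 in Pita wt, with CP190 at 13.6 in Pita wt. In all of these the FLAG value of the mutant was the lower one.

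PhKgamma encodes the catalytic subunit of phosphorylase kinase, and the study used this window as an example. FLAG was 3.98 in the mutant and 6.85 in Pita wt, with CP190 at 13.5 in Pita wt and 4 motif matches in the window. The nearest mutant CP190 summit was 1320 bp away, the shortest such distance among the 10 sites with the highest CP190. The other example window among the 307 lies in an intron of 14-3-3zeta on chromosome arm 2R, where FLAG was 2.03 in the mutant and 2.65 in Pita wt and CP190 was 5.13 in Pita wt. Its best match had p of 3.21e-05, which passes 1e-04 but not the stricter thresholds. A second gene of the same protein family, 14-3-3epsilon, was also near a stronger site, with FLAG at 2.77 in the mutant and 4.13 in Pita wt and CP190 at 9.24 in Pita wt.

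Socs36E, a negative regulator of JAK/STAT signalling, had FLAG at 3.57 in the mutant and 6.40 in Pita wt, with CP190 at 13.1 in Pita wt. At cindr, which encodes an adaptor of the CIN85 and CD2AP family, the FLAG peak was the second strongest of the whole Pita wt list. Its FLAG fold enrichment was 4.98 in the mutant and 8.86 in Pita wt, and CP190 was 12.4 in Pita wt. FLAG thus stayed among the strongest peaks of the mutant list (rank 10) at a site where the nearest mutant CP190 summit was 8540 bp away. The adaptor gene inc, named for the sleep loss of its mutants, had FLAG at 3.12 in the mutant and 4.68 in Pita wt with CP190 at 10.6 in Pita wt. Mpcp2, a mitochondrial phosphate carrier, had 2.91 and 4.75 in the same lists, with CP190 at 10.2. The CG32295 site, in an intron of Spn, carried the best match of all 307 sites (p of 6.09e-10) and had FLAG at 2.67 in the mutant and 5.69 in Pita wt with CP190 at 9.80.

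Among the sites with the lowest motif p, most were again near starts and had strong CP190. Sxl, the switch gene of sex determination, had FLAG at 3.23 in the mutant and 4.75 in Pita wt, with CP190 at 8.70 in Pita wt and the summit 112 bp upstream. Near mad2, a spindle checkpoint gene, FLAG was 2.18 in the mutant and 2.78 in Pita wt with CP190 at 4.46. The CG42788 site had FLAG at 3.19 and 5.97 in the mutant and Pita wt lists and CP190 at 5.81. At Mfe2, a peroxisomal enzyme of fatty acid oxidation, the summit lay in an intron of the neighbouring gene kat80, with FLAG at 2.90 in the mutant, 3.92 in Pita wt and CP190 at 3.88. FLAG was lower in the mutant at each, by less at Mfe2 and mad2 than at MCU.

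NFAT was the exception among these 10. Its match had p of 7.53e-09, yet its CP190 peak of Pita wt had a fold enrichment of only 1.89 and ranked 5020, with FLAG at 2.05 in the mutant and 2.52 in Pita wt. A good word was thus also found at a weak CP190 site. With unk, lncRNA:CR43639, CG32512 and lncRNA:CR45967, NFAT made up the 5 weaker sites with a match at 1e-06 or below. FLAG there lay between 1.84 and 2.32 in the mutant and between 2.52 and 2.85 in Pita wt. FLAG fold enrichment was lower in the mutant at 65.0% of all shared FLAG peaks. The remaining sites among the 10 with the lowest motif p (Dhdds, Pits, Trf4-1 and lncRNA:CR45717) had FLAG between 2.05 and 2.52 in the mutant and between 3.10 and 3.87 in Pita wt, and CP190 between 2.80 and 5.79 in Pita wt.

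FLAG was lower in the mutant at the stronger sites as a group. Its fold enrichment had a median of 2.52 in Pita ΔCP1+2 (range 1.86 to 4.98) and 4.24 in Pita wt (range 2.29 to 8.86), and it was lower in the mutant at 43 of 43 sites, against 65.0% of all shared FLAG peaks. The ratio of mutant to Pita wt had a median of 0.608 and ranged between 0.437 and 0.843. Fold enrichments of separate lists are not on one scale, so the percentile of each peak within its own list was compared as well. It was lower in the mutant at 43 of 43 stronger sites, with a median difference of −9.55 points and a range of −71.1 to −0.108. Over all shared FLAG peaks the median difference was 2.10 points. The stronger sites had a median FLAG percentile of 99.3 in Pita wt, which left them little room to rise. Each list also holds a ranking value for both of the 2 peak sets that went into its IDR comparison. Whether those sets are replicates or random splits of the reads is not stated, so they give no replicate error. Ranked within their lists, both mutant values were below both Pita wt values at 41 of the 43 stronger sites, against 15.9% of all shared FLAG peaks. At the 43 sites the rule itself set the absence of CP190 in the mutant and the call of FLAG in both lines. The lower FLAG is what the values add, and whether it goes with the loss of CP190 was not tested.

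The weaker sites did not share this. FLAG had a median of 2.02 in Pita ΔCP1+2 and 2.10 in Pita wt, the ratio had a median of 0.952 (range 0.694 to 1.53), and the percentile differed by a median of 1.72 points upward in the mutant. Both mutant values lay below both Pita wt values at 51 of the 264 weaker sites (19.3%) and above them at 42 (15.9%), against 15.9% and 22.7% of all shared FLAG peaks. The weaker sites were thus lower about as often as all shared FLAG peaks and higher less often (95% Wilson interval of that second share, 12.0 to 20.8%). The sites that kept CP190 had a median ratio of 0.963. Over all 307 sites the percentile differed by a median of −0.743 points, a value that mixes both sets.

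**Figure D3:**
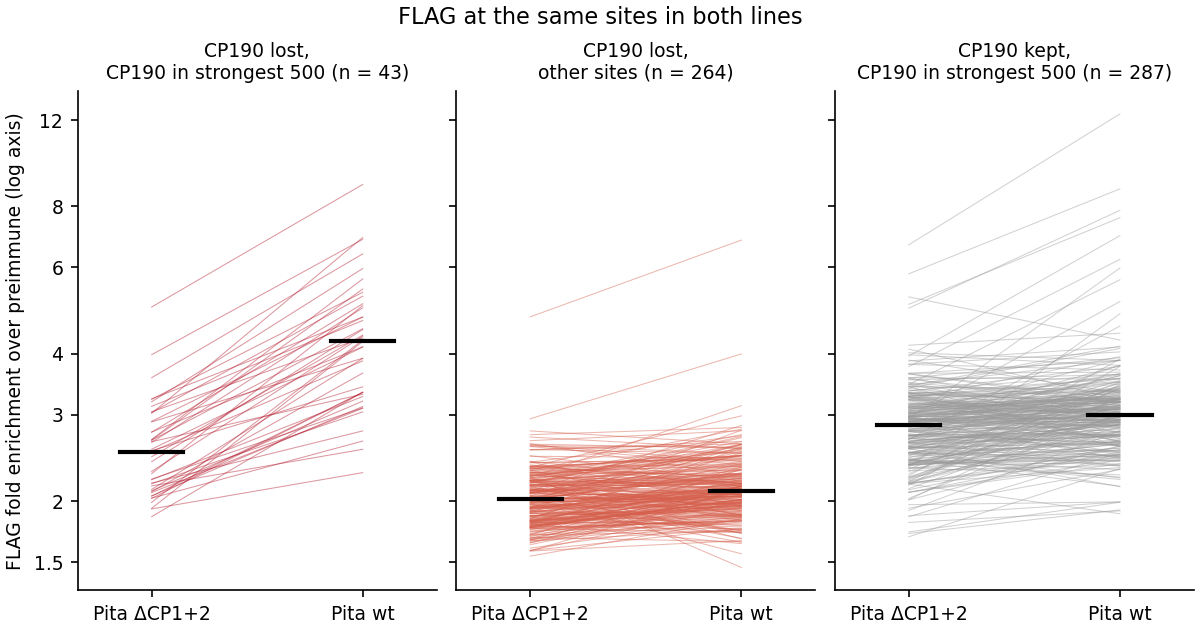
Each line joins the FLAG fold enrichment of a site in Pita ΔCP1+2 (left) and in Pita wt (right), on a log axis, and black bars are medians. The 43 stronger sites that lost CP190 all slope down towards the mutant (medians 2.52 and 4.24). The 264 weaker sites (2.02 and 2.10) and the 287 sites that kept CP190 with CP190 in the strongest 500 (2.86 and 3.00) are nearly level.

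The paired plot of FLAG sets the stronger sites beside sites that kept a CP190 peak of the strongest 500, and those were nearly level. The kept sites had weaker CP190 and FLAG in Pita wt, with a median CP190 fold enrichment of 2.96 against 6.39 at the stronger sites, so FLAG was also compared at alike FLAG ranks. Among the 100 strongest FLAG peaks of Pita wt, the ratio of mutant to Pita wt had a median of 0.563 (range 0.437 to 0.741) at the 24 sites that lost CP190 and had a match at 1e-05 or below. It had a median of 0.595 (range 0.493 to 0.707) at the 12 sites with such a match that kept CP190, and 0.829 (range 0.578 to 1.23) at the 26 that kept CP190 without a match at 1e-04. The 2 sites of this rank that lost CP190 and had no match at 1e-04 had ratios of 0.540 and 0.697, inside the range of those with a match. At the 12 sites without such a match and without CP190 in either line the median was 0.747 (range 0.549 to 1.23). The ranges of lost and kept motif sites overlapped, and the values without a match overlapped them too. At FLAG ranks 101 to 500 the medians were 0.665 at 10 lost motif sites, 0.841 at 10 kept motif sites and 0.904 at 271 kept sites without a match.

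Some sites with a strict match kept a CP190 window in the mutant. Of these 17 sites, 14 (82.4%) had a lower CP190 fold enrichment in the mutant, and the same number had a lower percentile within the list, against 31.8% by fold enrichment and 30.0% by percentile of all 3429 sites that kept CP190. For peaks in the strongest 100 of Pita wt, the fold enrichment was lower in the mutant at 10 of 10 such motif sites and also at 19 of 19 kept sites in all. The percentile was lower at 10 of these 10 and at 14 of the 19. At Atg8a, an autophagy gene with the strongest CP190 peak of the Pita wt list, CP190 was 5.10 in the mutant and 49.4 in Pita wt. At Tlk, a kinase of chromatin assembly, it was 3.12 in the mutant and 28.0 in Pita wt, and at cib, which encodes an actin-binding protein, 2.70 and 27.6. ATPsynC, a subunit of the mitochondrial ATP synthase, had 1.97 in the mutant and 17.6 in Pita wt. Within the mutant list these peaks ranked 9, 205, 661 and 5336 of 8429, in the order named, and within the Pita wt list they ranked 1, 3, 4 and 9. Atg8a, Tlk and cib thus stayed among the stronger CP190 peaks of the mutant, and ATPsynC did not.

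The largest falls in FLAG percentile within the 307 sites were at CG7655, CG12054, CG13711, unk and CG6621. CG7655 had FLAG at 1.86 in the mutant and 3.34 in Pita wt, which is 71.1 percentile points down. At unk, which encodes the zinc-finger protein unkempt, FLAG was 1.84 in the mutant and 2.56 in Pita wt, with a strict match (p of 1.68e-07) and CP190 of 2.55 in Pita wt, ranked 848. CG13711 and CG6621 had no match at 1e-04. Falls of this size were thus found with and without a motif.

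The largest rises in FLAG percentile were at CG42540, Su(fu), CG12105, asRNA:CR45951 and dpr16, all of them weaker sites. Their FLAG fold enrichment lay between 2.15 and 2.40 in the mutant and between 1.46 and 1.95 in Pita wt. Su(fu), an inhibitor of Hedgehog signalling, had 2.20 in the mutant and 1.72 in Pita wt. At each of the 5 the nearest mutant CP190 summit was between 504 and 774 bp away, just beyond the limit, and at 4 of the 5 a deposited mutant CP190 peak overlapped the deposited FLAG peak. The site at hlk was the other one among the 5 strongest FLAG peaks of the 307 and the only one of those with weak CP190, with FLAG at 4.76 in the mutant and 6.82 in Pita wt and CP190 at 2.05.

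Position separated the 2 sets as well. The summit lay within 500 bp of an annotated transcript start at 36 of the 43 stronger sites (83.7%) and at 53 of the 264 weaker sites (20.1%), against 19.8% of all FLAG peaks of Pita wt on the chromosome arms. It was 0 to 150 bp upstream of the start at 33 stronger sites (76.7%), 8 weaker sites (3.03%) and 59 of the 3429 sites that kept CP190 (1.72%), against 223 of all 6901 FLAG peaks of Pita wt (3.23%), so the weaker sites were at the background. This share was 18.5% at the peaks that lost FLAG and CP190. It was 5.23% at the 287 kept sites with CP190 in the strongest 500. The kept motif sites shown above also lay upstream of a start, at 76 bp (Atg8a), 178 bp (Tlk), 170 bp (cib) and 99 bp (ATPsynC). The position was thus not particular to sites that lost CP190. Over all 307 sites the share within 500 bp of a start was 29.0%, and it was 34.8% at the 330 peaks that lost FLAG and CP190. By annotation, 29 of the stronger summits were intergenic, 6 intronic, 6 in a 5′ UTR and 2 in a coding exon. Of the weaker summits 196 (74.2%) were in a coding exon, as were 87.0% of those that kept CP190. Base composition followed, with a median GC content of the 500 bp window of 41.6% at stronger sites, 55.4% at weaker sites and 58.4% at sites that kept CP190. Windows of that length around the starts of all protein-coding genes had a median of 41.0%.

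**Figure D4:**
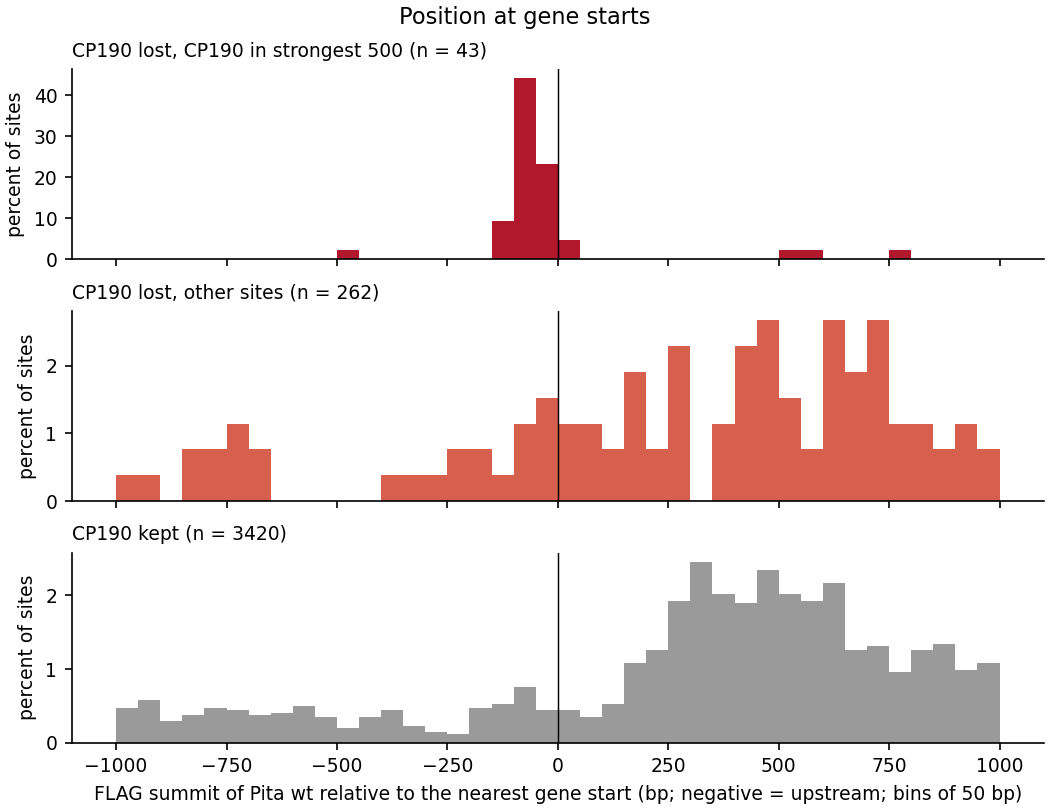
The distance of the FLAG summit of Pita wt from the nearest gene start (bp, negative upstream) is shown as percent of sites in bins of 50 bp, for 43 stronger sites that lost CP190, 262 weaker sites and 3420 sites that kept CP190. Sites beyond 1000 bp are counted in the percent but not drawn, and the vertical scales differ. The stronger sites pile up just upstream of the start, with 33 of 43 at 0 to 150 bp, and the other panels spread mostly downstream.

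The distribution at gene starts shows a single narrow pile for the stronger sites. In 31 of them a match at 1e-05 or below lay near a start within 500 bp of the summit, and all 31 matches were upstream of it. Their centres had a median of −110 bp and ranged between −532 and −23 bp, with 25 within 150 bp. The motif pointed along the gene in 16 and against it in 15, so position but not orientation was shared. Motif position relative to the start was not counted for the other classes. In 10 of the 36 stronger sites near a start, starts on both strands lay within 500 bp. That is 23.3% of all stronger sites, against 1.90% of all FLAG peaks of Pita wt. The share was 2.44% at kept sites with CP190 in the strongest 500 and 8.18% at peaks that lost FLAG and CP190. Nup205, a nucleoporin gene, and pico faced away from each other, with the summit 57 and 98 bp upstream of their starts. CG7655 and alt shared a site at 57 and 97 bp, and Axn, the Axin of the Wnt pathway, and RpS28a shared one at 71 and 123 bp. The 36 sites lay within 500 bp of the starts of 46 protein-coding genes in all.

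Other promoter motifs were searched as fixed words on both strands of the 500 bp window. The DNA replication-related element, searched as TATCGAT, was in 14 of the 43 stronger sites (32.6%, interval 20.5 to 47.5%) and in 6.11% of the weaker sites, against 4.17% of all FLAG peaks of Pita wt and 20.3% of windows around all protein-coding gene starts. The BEAF-32 word CGATA, whose matches can overlap it, was in 69.8% of the stronger sites, 42.4% of the weaker sites and 59.8% of gene-start windows. The core of Motif 1, GGTCACA, which M1BP binds, was in 25.6%, 6.11% and 11.5% of the same 3 sets. Over all FLAG peaks of Pita wt, CGATA was in 39.4% and GGTCACA in 5.86%. These words were more frequent in the stronger sites than in the weaker ones, whose shares were near those of all FLAG peaks, and gene-start windows lay between.

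GAGAG, the word of GAGA factor, showed the other order, with 37.2% of stronger sites, 55.0% of weaker sites, 48.9% of all FLAG peaks of Pita wt and 43.8% of gene-start windows. In the same order, TGCATA, a core of Su(Hw) sites, was in 18.6%, 10.7%, 13.3% and 22.1%. TGGCGC, a core of CTCF sites, was in 37.2%, 38.5%, 38.1% and 20.8%, so both sets were at the level of all FLAG peaks. The E-box word CAGCTG was in 23.3%, 39.3%, 36.1% and 26.1%. By comparison the Pita matrix matched 7.57% of gene-start windows at 1e-04 and 1.40% at 1e-06, where the stronger sites had 90.7% and 58.1%. A word in a window is a match of letters and not a bound site.

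The genes at the sites were of varied function. Of 8 lists of genes, only the ribosomal proteins had a start within 500 bp of a site. These were RpL30, RpS14a and RpS28a, 3 of 92 genes of the list (3.26%), against 95 of 13945 protein-coding genes (0.681%). Ribosomal protein genes were also more often near any FLAG peak of Pita wt (20.7%, against 9.42% of protein-coding genes) and near sites that kept CP190 (7.61%, against 4.27%). All 3 lay at stronger sites. RpL30 was the nearest gene of its site, with FLAG at 2.05 in the mutant and 3.34 in Pita wt and CP190 at 5.63 in Pita wt, whereas RpS14a and RpS28a shared theirs with Dhdds and Axn. The counts were 0 for architectural proteins (19 genes), replication (23), homeotic genes (8), mitochondrial ribosomal proteins (73), proteasome (48), respiratory chain (80) and tRNA synthetases (17), lists too short for a share of 0.681% to give 1 gene.

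On the chromosomes, 74 of the 307 sites (24.1%) lay on X, and the share was 37.2% of the stronger sites (16 of 43, interval 24.4 to 52.1%), 22.0% of the weaker sites, 26.5% of the sites that kept CP190 in the strongest 500 and 18.6% of all shared FLAG peaks. The share of 26.5% lies inside the interval of the stronger sites. No site lay on chromosome 4, and 2 lay outside the chromosome arms. In Pita wt, the FLAG and CP190 summits were a median of 16 bp apart at stronger sites and 27.5 bp apart at weaker sites.

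How clear the loss was also differed. The nearest CP190 summit of the mutant list was a median of 3854 bp away at stronger sites (range 529 to 25113 bp) and was more than 5 kb away at 19 of the 43. Yet a deposited mutant CP190 peak overlapped the deposited FLAG peak at 67 of the 307 sites (21.8%), 5 of them stronger and 62 weaker. At 13 sites, all of them weaker, the CP190 summits of the lines were less than 500 bp apart and only the FLAG summit of Pita wt lay too far off. Just inside the limit were CG34195 (nearest mutant CP190 summit 500 bp from the FLAG summit), tRNA:Thr-AGT-1-1 (503 bp), CG42540 (504 bp), Ets65A (509 bp) and spri (509 bp), with FLAG between 1.81 and 2.24 in the mutant and between 1.46 and 2.32 in Pita wt. Just outside were CG1544 (498 bp), CG17807 (493 bp), ham (493 bp), SERCA (491 bp) and CG6005 (487 bp), with FLAG between 1.80 and 2.43 in the mutant and between 1.34 and 2.17 in Pita wt. The sites on both sides of the limit had alike FLAG values, so membership of the weaker sites near it turned on a few base pairs.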

How the data were processed

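Each of the 4 peak lists covers 1 antibody in 1 line. According to the methods, the authors used cutadapt for trimming, Bowtie version 2 for alignment to dm6 and Picard for removal of duplicates. MACS2 peaks were called relative to the preimmune library, and the deposited list is the optimal set of the IDR procedure (threshold 0.05), in which replicates are pooled. The deposited fold enrichment is a ratio to that library, and the −log10 p-value of each peak is also the authors' value. The deposited lists further hold 2 score columns, the ranking values of the peak sets put into the IDR comparison, whose unit was not stated. No columns of the authors' comparisons were present.

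Peaks were matched by windows reaching 250 bp to either side of their summits (overlap of 1 bp or more) and ranked by fold enrichment within each list. Intervals are 95% Wilson intervals. The 21-position Pita matrix of the study, read from the text of a supplementary document, was run over both strands of dm6, with exact score p under equal base frequencies. Gene starts and features came from Ensembl release 115 without transposable elements. Scripts were tested on simulated data. The members, lists and tests were chosen with earlier results of these data known. Sites named are the 10 with the highest CP190 fold enrichment, the 10 with the lowest motif p, the 5 with the strongest FLAG, the 5 largest falls and 5 largest rises of FLAG percentile, those at listed genes, the example windows of the study and the 5 on each side of the 500 bp limit. 14-3-3epsilon, Nup205, the weaker sites with a strict match, the shared starts and the sites that kept CP190 were named after their values were seen. Alternatives are given in the closing section. Python 3.11.15, numpy 2.4.6, pandas 2.3.3, scipy 1.17.1 and matplotlib 3.10.9 were used.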

Additional observations from a re-analysis of the deposited data

How the results depend on the processing

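No paired analysis was possible because each list pools its replicates, and for the same reason no replicate could be left out. The number of sites lay between 214 and 334 under all but 1 alternative, the 3000 strongest CP190 peaks of Pita wt, which gave 139. The share lost among shared FLAG peaks with CP190 (8.22%) moved under every choice of overlap or list length, to 6.38% with deposited boundaries, 9.30% with windows of 125 bp and 6.59% with windows of 500 bp on each side, 13.3% with 5000 peaks per list, 10.4% at a fold enrichment of 2 or more and 6.39% with 3000 CP190 peaks. With those 3000 peaks, 38.8% of sites had a match at 1e-04, 20.9% had one at 1e-06, 40.3% lay within 500 bp of a start and the median CP190 percentile was 77.4. That percentile was 61.8 with 5000 peaks per list and 72.7 at a fold enrichment of 2 or more. A motif threshold of 1e-05 or 1e-06 gave 14.0% or 9.77% of sites with a match, and start distances of 250 or 1000 bp gave 20.2% or 45.6%. The share of strict motif sites that lost CP190 (63.8%) was 49.2% with windows of 500 bp on each side, 77.5% with 5000 peaks per list and 42.6% with matches at 1e-05. The share of the strongest CP190 peaks lost (13.0%) was 31.7% among the strongest 250 and 7.12% among the strongest 1000. The median change of FLAG percentile stayed within its interval (−3.02 to 1.20) but was above 0 with 5000 peaks per list (0.107) and at a fold enrichment of 2 or more (0.318). Requiring, after seeing the data, that no mutant CP190 peak overlap the deposited FLAG peak either left 240 sites, 27.9% of them with a match. The remaining alternatives stayed within 1.5 times the count or within the interval. For the rest the cause was not tested, other than that shorter lists hold fewer peaks.

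A single pooled list per antibody and line gives no replicate error, and presence in a list depends on depth, which was not analysed here.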
